A study of Mus musculus with 365 samples.

Results

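MHC class II molecules and the genes that load and switch them on were followed through 365 single progenitor cells of mouse bone marrow. The set held 10 genes, taken by Entrez identifier from the 23427 genes of the deposited count table. They were the classical chains H2-Aa, H2-Ab1 and H2-Eb1, the invariant chain Cd74, the loading factor genes H2-DMa, H2-DMb1 and H2-DMb2, the modulator genes H2-Oa and H2-Ob, and the class II transactivator Ciita. All 10 passed the low-count filter of the test over chips.

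The cells belonged to EPLM, a class of early progenitors that can give rise to lymphoid and to myeloid cells, sorted ex vivo from femoral marrow. One group was Ly6D+ EPLM, with 152 cells captured on chips 4, 5 and 6 (40, 60 and 52 cells). The other was TN (triple negative) EPLM, with 213 cells on chips 1, 2 and 3 (75, 69 and 69 cells). Every cell of both groups came from pools of 2 C57BL/6 mice of the Flt3Ltg strain, which carries a transgene for Flt3 ligand, a growth factor of early lymphoid and dendritic progenitors. Marrow with ordinary Flt3 ligand was therefore not part of the comparison, and the labels give neither the promoter of the transgene nor the age of the mice. A chip held cells of 1 population only, so a chip effect and a population effect cannot be told apart, and a p-value here speaks only of how far chips of 1 population differ, a spread that may be technical.

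Chips held 35734620 to 61415823 gene reads and cells held 267852 to 1854600. The sorting marker Ly6d had 3046, 2860 and 2564 CPM (counts scaled to library size) on the Ly6D+ chips and 82.96, 167.7 and 283 CPM on the TN chips, so the labels and the marker pointed the same way. No cell had the same counts as another cell.

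Classical class II molecules are paired alpha and beta chains that show peptides to helper T cells. The invariant chain guards the empty groove on the way to the endosome, H2-DM then removes its last fragment and helps peptides in, and H2-O binds H2-DM and holds it back. Ciita is the co-activator that switches on the classical genes, Cd74 and H2-DM by docking on a factor complex (RFX, CREB and NF-Y) at the X, X2 and Y boxes of their promoters. Dendritic cells and B cells are the marrow-derived cells best known for class II, and H2-O is best known from B cells.

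The promoters are shown because these boxes are what the genes are known to share. RefSeq windows (build GRCm38.p6) were found for 7 of the 10 genes, and none was at hand for H2-Ab1, Cd74 and Ciita. The 150 bases before the annotated start are given 5′ to 3′ on the gene's strand, all from chromosome 17. Capitals mark matches to the Y box CTGATTGG or its core ATTGG, the X2 core TGACG, or the X box, taken as CCNAG, any 2 bases, AC, any 2 bases and ATG, all searched on both strands. The windows are chr17:34287824-34287973 (minus strand), chr17:34305717-34305866, chr17:34153041-34153190, chr17:34145099-34145248, chr17:34092229-34092378 and chr17:34238755-34238904 (all 5 on the plus strand).
H2-Aa: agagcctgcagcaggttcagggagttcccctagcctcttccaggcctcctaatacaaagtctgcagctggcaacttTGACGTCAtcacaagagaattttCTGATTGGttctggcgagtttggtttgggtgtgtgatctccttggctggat
H2-Eb1: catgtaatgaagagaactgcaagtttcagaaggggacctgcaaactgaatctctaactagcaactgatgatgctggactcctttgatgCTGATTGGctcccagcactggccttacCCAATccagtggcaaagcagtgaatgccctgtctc
H2-DMb1: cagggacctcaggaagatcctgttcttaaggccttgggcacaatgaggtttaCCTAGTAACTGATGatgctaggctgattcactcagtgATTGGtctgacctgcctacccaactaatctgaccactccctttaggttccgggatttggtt
H2-DMb2: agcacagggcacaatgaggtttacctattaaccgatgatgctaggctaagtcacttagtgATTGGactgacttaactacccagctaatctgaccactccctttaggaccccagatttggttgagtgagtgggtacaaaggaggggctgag
H2-Oa: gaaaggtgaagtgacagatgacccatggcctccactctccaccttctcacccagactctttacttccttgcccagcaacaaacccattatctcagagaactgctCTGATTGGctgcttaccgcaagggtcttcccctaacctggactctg
H2-Ob: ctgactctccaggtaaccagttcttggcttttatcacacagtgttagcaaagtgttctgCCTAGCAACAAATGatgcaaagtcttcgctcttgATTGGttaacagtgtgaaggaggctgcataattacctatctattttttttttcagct

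Positions count back from the annotated start to the first base of the match. The full Y box began at -51 in H2-Aa, -62 in H2-Eb1 and -46 in H2-Oa, and was found in 3.16% of 32851 RefSeq promoters over the same 150 bases. Its core lies inside the full box. The core was on the gene's strand in 6 of the 7 genes with a window, against 13.7% of all promoters. Without the full box, it began at -90 in H2-DMb2, -61 in H2-DMb1 and -57 in H2-Ob. H2-Eb1 held the core once more, on the other strand, at -35. The X box pattern began at -98 in H2-DMb1 and -91 in H2-Ob, 2 of the 7 genes with a window, against 0.107% of all promoters. No mismatch was allowed, so a gene without a match may still hold an X box. In H2-Eb1 and in H2-DMb2 a stretch upstream of the Y box core differs from the pattern at a single letter. The X2 core stood on both strands of H2-Aa, at -74 and -71 in overlapping letters, against 13.3% of all promoters. Neither of the 2 RefSeq windows of H2-DMa held any of the letters searched, and they are not printed. They lie at chr17:34122682-34122831 and chr17:34125368-34125517, on the plus strand. Whether either window is the promoter used in these cells was not tested, so they do not show that H2-DMa lacks the boxes. Letters of the boxes were thus present upstream of genes with lower values and of the gene with higher values in Ly6D+ cells.

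Levels over the chips divided the genes. In Ly6D+ EPLM the classical chains, Cd74, H2-DMa, H2-DMb1 and Ciita had lower summed levels than in TN EPLM on every chip, while H2-Ob was higher on every chip, and H2-Oa and H2-DMb2 overlapped. The test over all genes (chip sums in edgeR, quasi-likelihood F-test, Benjamini-Hochberg adjusted over 11797 genes) called none of the 10 genes at 0.05, and called 24 genes of all, or 0.203% (0.0932% higher and 0.11% lower in Ly6D+). Without adjustment, 6 of the 10 were under 0.05 as lower in Ly6D+ and 1 as higher, against 4.1% and 4.27% of all genes. Chip levels did not overlap for 7 genes that were lower in Ly6D+ and 1 that was higher, against 7.75% and 7.64% of all genes. The median log2 fold change, Ly6D+ over TN, was -1.83 over the 10 genes and 0.014 over all genes tested.

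**Figure D1:**
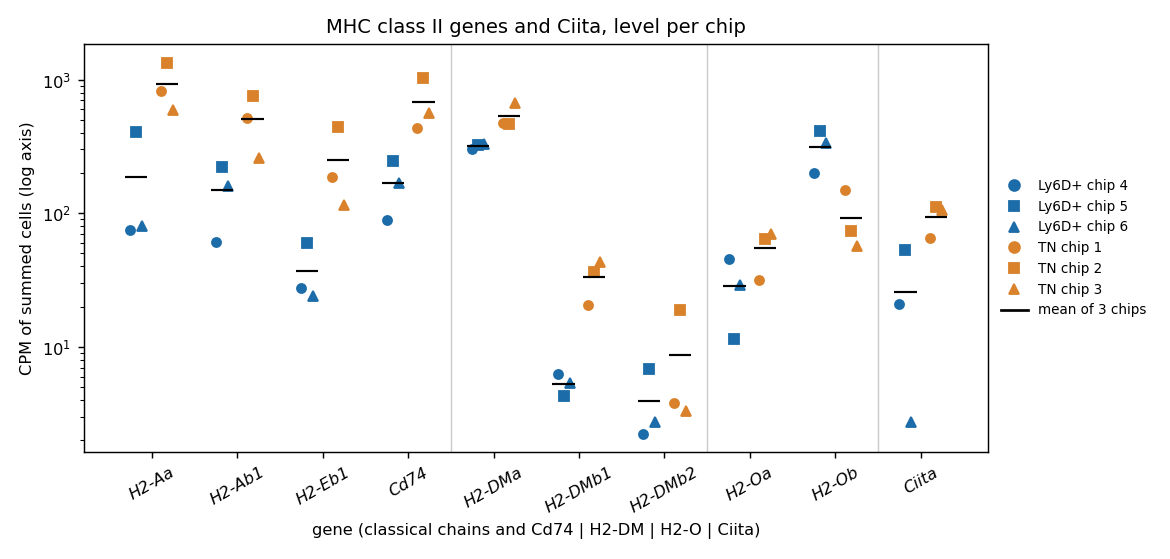
CPM of the summed cells of each chip (log axis) for the 10 genes, with Ly6D+ chips in blue left of TN chips in orange and a bar at the mean of 3 chips. The 4 genes at the left, H2-DMa, H2-DMb1 and Ciita lie lower on every Ly6D+ chip, and H2-Ob lies higher.

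H2-Aa, the alpha chain of the I-A molecule, had 75.3, 408 and 80.96 CPM on the Ly6D+ chips and 824, 1341 and 591 CPM on the TN chips. Ly6D+ chip 5 stood well above the other Ly6D+ chips and still below every TN chip. Its log2 fold change was -2.29 ± 0.67 (SE, adjusted p = 0.321 in edgeR). Without Ly6D+ chip 5 the same fit gave -3.56 with an adjusted p of 0.0307. With that chip kept, but without the 6 Ly6D+ and 16 TN cells that had fewer than 1500 genes detected, edgeR gave -2.96 with an adjusted p of 0.0329. Both settings left out the highest H2-Aa cell of Ly6D+ chip 5, which had 1341 genes detected and 66.5% of that chip's H2-Aa reads. The part of this cell in the call was not tested.

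H2-Ab1, the I-A beta chain, had 61.2, 223 and 161.04 CPM on the Ly6D+ chips, against 514, 755 and 257 CPM on the TN chips. The highest Ly6D+ chip and the lowest TN chip were close, and the log2 fold change was -1.78 ± 0.52 (adjusted p = 0.319 in edgeR). H2-Eb1, the I-E beta chain, had 27.5, 59.8 and 24.1 CPM on the Ly6D+ chips, against 185.8, 445 and 115.03 CPM on the TN chips. Its log2 fold change of -2.74 ± 0.58 was the lowest of the 10 genes, with an adjusted p of 0.177 in edgeR. Its partner H2-Ea, which is known to be silent in C57BL/6 mice through a promoter deletion, had no read in any cell of either population.

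Cd74, the invariant chain, had 89.7, 245 and 167.7 CPM on the Ly6D+ chips, against 433, 1025 and 564 CPM on the TN chips. The groups did not overlap, and the log2 fold change was -2.01 ± 0.44 (adjusted p = 0.185 in edgeR). The microRNA gene Mir5107 lies within Cd74 and had 2400 reads against 138056 for Cd74, and no cell had a read of Mir5107 without one of Cd74.

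H2-DMa, the alpha chain of H2-DM, was the steadiest gene of the set, with 300, 324 and 330 CPM on the Ly6D+ chips and 475, 465 and 668 CPM on the TN chips. The groups did not overlap, but the gap in chip sums was small, with a log2 fold change of -0.75 ± 0.21 (adjusted p = 0.287 in edgeR). H2-DMb1, one of the H2-DM beta chains, had 6.27, 4.27 and 5.40 CPM on the Ly6D+ chips, against 20.5, 36.6 and 43.4 CPM on the TN chips. This gap was as wide as those of the classical chains, at -2.66 ± 0.67 (adjusted p = 0.227 in edgeR). The other beta chain, H2-DMb2, had 2.24, 6.86 and 2.74 CPM on the Ly6D+ chips and 3.78, 18.9 and 3.32 CPM on the TN chips. Its groups overlapped, the log2 fold change was -1.14 ± 1.16 (adjusted p = 0.872 in edgeR), and without TN chip 2 it was 0.15. The beta chain genes shared 22.7% (H2-DMb1) and 21.2% (H2-DMb2) of their 50-base stretches in the GENCODE transcripts, so how the authors' counting divided such reads bears on both.

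H2-Ob, the H2-O beta chain, went the other way, with 198.99, 413 and 333 CPM on the Ly6D+ chips and 148.1, 73.3 and 57.4 CPM on the TN chips. The lowest Ly6D+ chip lay above the highest TN chip, and the log2 fold change was 1.76 ± 0.43 (adjusted p = 0.217 in edgeR). H2-Oa, the alpha chain that H2-O needs as its partner, had 45.5, 11.5 and 28.97 CPM on the Ly6D+ chips and 31.9, 64.4 and 69.8 CPM on the TN chips. The H2-Oa groups overlapped, with a log2 fold change of -0.95 ± 0.60 (adjusted p = 0.739 in edgeR), which came to -0.000343 ± 0.68 without the cells under 1500 genes. H2-Oa shares 15.5% of its 50-base stretches with BC051537 on the opposite strand, and its reads and those of BC051537 went together over cells (mean Spearman rho 0.88 in Ly6D+ and 0.87 in TN, within chips). The library does not mark strand, so reads of the overlap cannot be assigned to 1 of these genes. H2-DMa likewise shares 8.43% with Brd2 on the opposite strand, but these 2 genes did not go together over cells (rho 0.028 in Ly6D+ and -0.10 in TN).

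Ciita itself had 20.8, 53.5 and 2.74 CPM on the Ly6D+ chips, against 65.6, 110.85 and 105.7 CPM on the TN chips. The groups did not overlap, but the Ly6D+ chips were far apart, and the log2 fold change was -1.87 ± 0.87 (adjusted p = 0.624 in edgeR). A single cell supplied 99.04%, 85.9% and 100% of the Ciita reads on Ly6D+ chips 4, 5 and 6, so a chip's Ciita level there was the level of 1 cell.

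The call depended on the tool. DESeq2 called 7 of the 10 genes, with 6 lower (H2-Aa, H2-Ab1, H2-Eb1, Cd74, H2-DMa, H2-DMb1) and H2-Ob higher, against 2.57% of all genes lower, 2.33% higher and 4.9% in either direction. limma-trend on chip means of log2(CPM + 1) called H2-Aa and H2-DMb1 lower and H2-Ob higher, against 0.89% of all genes lower, 1.87% higher and 2.76% in either direction. On that scale the log2 fold change was -1.48 for H2-DMa, -1.61 for H2-Aa, -0.68 for H2-Ab1, -0.93 for H2-Eb1 and -1.41 for Cd74. The H2-DMa gap was thus not smaller there than those of H2-Ab1, H2-Eb1 and Cd74. H2-Ob had an adjusted p of 0.00502 in DESeq2 and 0.00214 in limma-trend. H2-Oa, H2-DMb2 and Ciita were called by none of the 3 tools.

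Divided by gene length, the order of the genes differed between the populations. In Ly6D+ EPLM H2-DMa led with 191.65 ± 9.51 CPM per kb (SD, n = 3 chips), followed by H2-Aa at 176.08 ± 178.4, H2-Ab1 at 124.3 ± 68.3, Cd74 at 118.4 ± 54.9 and H2-Ob at 117.99 ± 40.5. Neighbours among these 5 genes had overlapping ranges of mean ± SD. H2-Oa at 27.3 ± 16.2 and H2-Eb1 at 22.2 ± 11.8 CPM per kb lay below them, and H2-DMb2 (5.02), Ciita (4.51) and H2-DMb1 (4.14) were lowest. In TN EPLM H2-Aa led with 860 ± 359 CPM per kb, followed by Cd74 at 476 ± 220, H2-Ab1 at 426 ± 208.7, H2-DMa at 323 ± 69.1 and H2-Eb1 at 148.98 ± 104.1. The ranges of mean ± SD overlapped between neighbours down to H2-DMa, and that of H2-Eb1 lay below that of H2-DMa. H2-Oa at 52.8 ± 19.5, H2-Ob at 34.8 ± 18.2, H2-DMb1 at 26.1 ± 9.16, Ciita at 16.5 ± 4.35 and H2-DMb2 at 11.04 ± 11.3 CPM per kb closed the TN order, with each overlapping the next. H2-DMa led on Ly6D+ chips 4 and 6 and H2-Aa on chip 5, whereas H2-Aa led on all 3 TN chips. H2-Ob held ranks 2, 5 and 3 on Ly6D+ chips 4, 5 and 6, against ranks 6, 8 and 8 on TN chips 1, 2 and 3.

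Set against the classical chains, H2-O stood higher in Ly6D+ EPLM than in TN EPLM. The log2 ratio of summed H2-O CPM to summed classical chain CPM was 0.58, -0.70 and 0.44 on the Ly6D+ chips and -3.08, -4.21 and -2.92 on the TN chips. H2-O and classical chain reads were thus of like number on the Ly6D+ chips, and classical chain reads prevailed on the TN chips. The ratio for H2-DM was 0.91, -1.05 and 0.34 on the Ly6D+ chips and -1.61, -2.29 and -0.43 on the TN chips, so the groups overlapped. The Ly6D+ minus TN difference in mean log2 ratio was 3.51 for H2-O and 1.51 for H2-DM. When log2(CPM + 1) was averaged over the genes and cells instead, so that a few very high cells weighed less, these differences were 2.16 for H2-O and 0.069 for H2-DM. Single genes carried these sums to differing extents. H2-Ob made up 198.99 of 244 CPM, 413 of 424 CPM and 333 of 362 CPM of H2-O on the Ly6D+ chips, and 148.1 of 180.1 CPM, 73.3 of 137.7 CPM and 57.4 of 127.2 CPM on the TN chips. For H2-Ob alone the log2 ratio was 0.28, -0.74 and 0.32 on the Ly6D+ chips and -3.36, -5.12 and -4.07 on the TN chips. For H2-DMa, the main part of the H2-DM sum on every chip, the ratio alone was 0.87, -1.09 and 0.31 on the Ly6D+ chips and -1.68, -2.45 and -0.53 on the TN chips. These ratios are over reads, not per length, and carry no test.

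A chip sum alone does not tell fewer expressing cells from less RNA per cell, so both were read from single cells thinned to 200000 reads, where 5 or more reads (25 CPM) counted as detected. H2-DMa was detected in 75%, 55% and 76.9% of cells on the Ly6D+ chips and in 84%, 76.8% and 84.1% on the TN chips, so most cells of both populations had it. No other gene of the set reached the H2-DMa share on any chip. This difference in breadth between H2-DMa and the classical chains was present in both populations.

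For H2-Aa the share of cells was 13.01% ± 6.38 in Ly6D+ and 24.5% ± 3.94 in TN (SD, n = 3 chips each). For H2-Eb1 it was 11.9% ± 0.52 in Ly6D+ and 20.2% ± 3.87 in TN, and for Cd74 30.3% ± 4.64 in Ly6D+ and 43.8% ± 6.04 in TN. For these 3 genes chips did not overlap, and the exact two-sided permutation p was 0.1, the smallest that 3 chips against 3 allow. H2-Ab1 had shares of 24.98% ± 6.79 in Ly6D+ and 30.5% ± 5.24 in TN, with overlapping chips and an exact p of 0.4.

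The share with H2-DMb1 was 7.37% ± 2.31 in Ly6D+ and 23.2% ± 7.43 in TN, and that with Ciita 2.59% ± 0.71 in Ly6D+ and 8.43% ± 2.31 in TN, again without overlap (exact p = 0.1 each). The share with H2-Ob was 46.6% ± 7.8 in Ly6D+ and 21.8% ± 8.19 in TN, and here the Ly6D+ chips were all higher (exact p = 0.1). H2-DMa (exact p = 0.2), H2-DMb2 (exact p = 0.3) and H2-Oa (exact p = 0.6) had overlapping chips. H2-DMb2 was detected in 0 of the 40 cells of Ly6D+ chip 4, which allows a share of up to 7.5% by counting error alone. Detection shares did not overlap in 5 genes that were lower in Ly6D+ and 1 that was higher, against 5.83% and 10.5% of all genes tested.

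**Figure D2:**
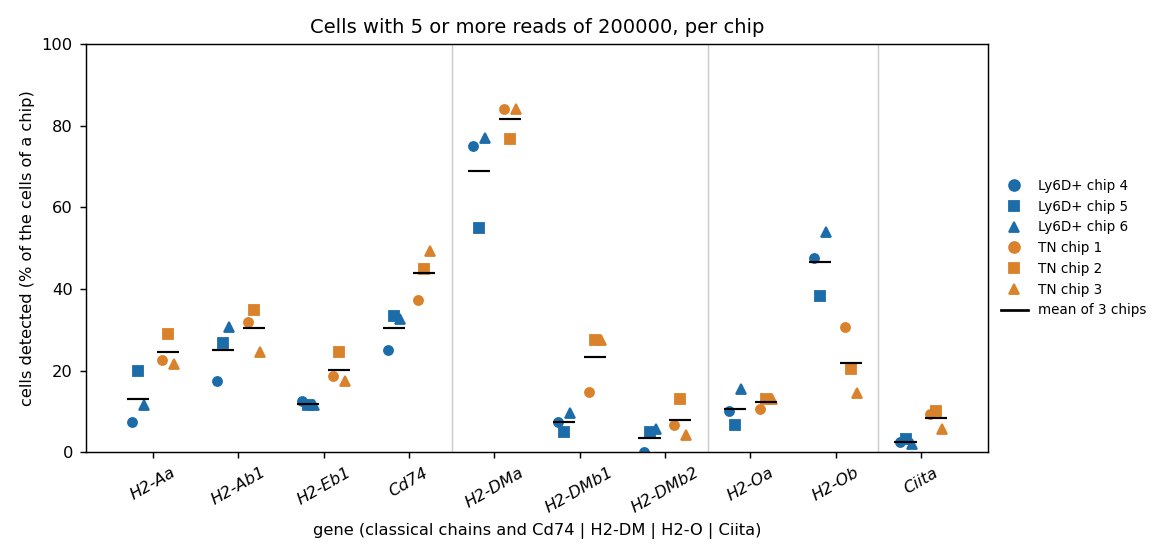
Percent of the cells of each chip in which each gene was detected (5 or more of 200000 reads), with Ly6D+ chips in blue left of TN chips in orange and a bar at the mean of 3 chips. H2-DMa stands above 50% on all 6 chips, and H2-Ob is the gene whose Ly6D+ chips all lie above its TN chips.

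The level in the cells where a gene was detected was read chip by chip, with no test. Cells with H2-Aa had median levels of 328, 391 and 221 CPM on the Ly6D+ chips (3, 12 and 6 cells) and 1321, 3886 and 793 CPM on the TN chips (17, 20 and 15 cells), so these medians did not overlap. Single cells reached 19314 CPM in Ly6D+ and 15005 CPM in TN. For H2-Ab1 the medians were 172.7, 332 and 186.2 CPM on the Ly6D+ chips and 501, 587 and 260 CPM on the TN chips, and for H2-Eb1 102.6, 497 and 227 CPM on the Ly6D+ chips and 359, 1505 and 289 CPM on the TN chips. Both of these genes overlapped over chips. For H2-DMa they were 341, 394 and 324 CPM on the Ly6D+ chips and 493, 462 and 516 CPM on the TN chips, without overlap. For H2-Ob the medians were 132.3, 487 and 334 CPM on the Ly6D+ chips and 256, 215 and 314 CPM on the TN chips, and the means over the same cells were 474, 1102 and 667 CPM on the Ly6D+ chips and 556, 369 and 449 CPM on the TN chips. The H2-Ob level in detected cells thus overlapped by either measure, while the share of cells with H2-Ob did not.

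The classical genes were concentrated in few cells. Cells with all 4 of H2-Aa, H2-Ab1, H2-Eb1 and Cd74 detected numbered 1, 3 and 1 on the Ly6D+ chips and 9, 13 and 7 on the TN chips. They held 59.3%, 63.9% and 53% of the reads of these 4 genes on the Ly6D+ chips and 89.8%, 91.9% and 85.5% on the TN chips. On each Ly6D+ chip 1 cell held over 50% of these reads, against 3, 4 and 3 cells together on the TN chips. H2-DMa was spread far more widely, since it took 6, 8 and 7 cells on the Ly6D+ chips and 14, 11 and 10 on the TN chips to reach 50% of its reads.

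The highest H2-Aa cell of Ly6D+ chip 5 reached 19314 CPM, above every TN cell, and was the top cell of its chip for all 4 genes and for Ciita, with 2604 Ciita reads and 1341 genes detected. With the highest cell of each gene left out on every chip, H2-Aa averaged 9.81, 138.9 and 30.9 CPM on the Ly6D+ chips and 611, 1154 and 472 CPM on the TN chips. The log2 ratio of mean CPM then was -3.64 for H2-Aa, against -2.29 with all cells, and -4.18 for Ciita, against -1.87. For H2-Ob it was 1.93, against 1.76 with all cells.

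**Figure D3:**
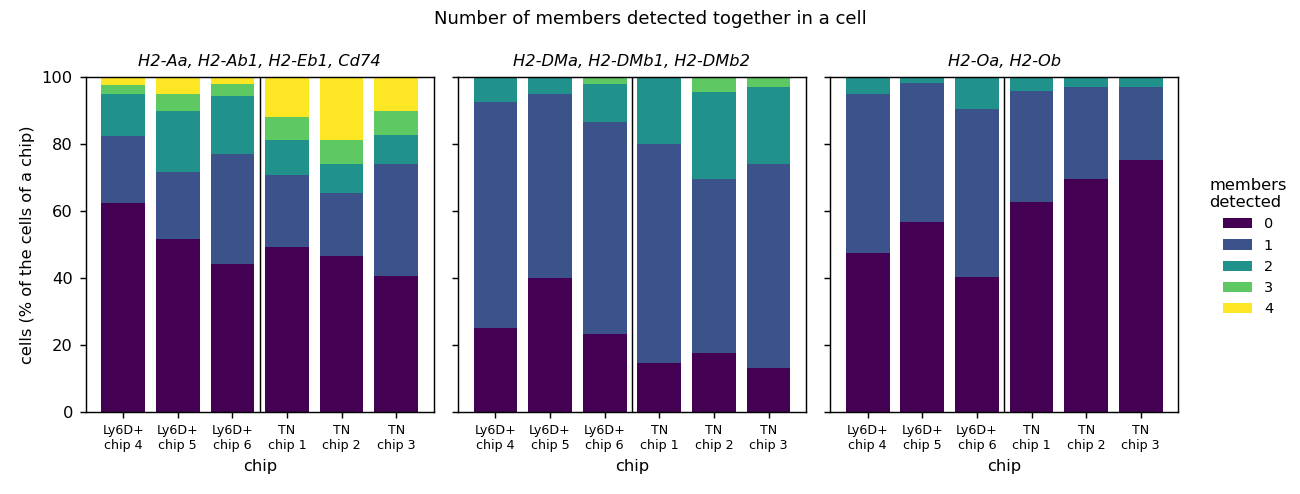
Stacked percent of the cells of each chip by how many genes of a family were detected in the cell, for the classical chains with Cd74, the H2-DM genes and the H2-O genes, Ly6D+ chips left of TN chips. Cells with all 4 of the first family (yellow) take a visible share of the TN chips, and cells with 1 H2-O gene take more of the Ly6D+ chips.

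Counted per cell, Ly6D+ cells had 0.80 ± 0.16 of the 4 classical genes with Cd74 detected and TN cells 1.19 ± 0.12 (SD, n = 3 chips). The H2-DM genes averaged 0.80 ± 0.14 of 3 in Ly6D+ cells and 1.13 ± 0.066 of 3 in TN cells. The H2-O genes averaged 0.57 ± 0.12 of 2 in Ly6D+ cells and 0.34 ± 0.069 of 2 in TN cells. No chip of one population overlapped with the other in any of these 3 families. Such means pool genes chosen with these results known and carry no test.

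Within TN chips the 4 classical genes varied together from cell to cell. The mean of their 6 pairwise Spearman correlations was 0.32 ± 0.068 in Ly6D+ cells and 0.65 ± 0.11 in TN cells (SD over 3 chips). The pair H2-Aa and H2-Eb1 had a mean rho of 0.19 in Ly6D+ cells and 0.74 in TN cells, the highest of any pair in TN. The points of such a correlation are cells of 1 chip that share its capture and amplification, and the many cells at 0 reads weigh on it, so it is given as a description.

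H2-DMa followed the classical genes weakly, with a mean rho of 0.064 in Ly6D+ cells and 0.23 in TN cells. Among Ly6D+ cells, H2-DMa was detected in 75.3% of those with any classical gene or Cd74 and in 60.8% of those without. Among TN cells it was detected in 83.6% of those with and 79.4% of those without. Most cells with no classical gene detected thus still had H2-DMa. H2-DMb1 was detected in 1 of the 5 Ly6D+ cells with all 4 classical genes and in 6.80% of the others, against 15 of the 29 TN cells with all 4 and 18.5% of the others.

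Most TN cells with Ciita had its target genes, and the Ly6D+ population had too few cells with Ciita to describe in the same way. A classical gene or Cd74 was present in 3 of the 4 Ly6D+ cells and 17 of the 18 TN cells with Ciita, and all 4 were present in 1 of these Ly6D+ cells and 13 of these TN cells. Among cells without Ciita, 47.3% in Ly6D+ and 50.8% in TN had a classical gene or Cd74, and 2.70% in Ly6D+ and 8.21% in TN had all 4. In the reverse direction, of the cells with all 4 genes, 1 of 5 in Ly6D+ and 13 of 29 in TN had Ciita. Among the cells without all 4, Ciita was detected in 2.04% in Ly6D+ and 2.72% in TN. Ciita was thus more frequent in TN cells with all 4 genes than in other TN cells, though not in all of them. The mean rho between Ciita and the classical genes was 0.098 ± 0.22 in Ly6D+ cells and 0.47 ± 0.13 in TN cells. Between Ciita and the H2-O genes it was 0.025 in Ly6D+ cells and 0.017 in TN cells. In TN cells Ciita and the summed classical genes with Cd74 each fell with the number of genes detected (rho -0.33 and -0.40). In Ly6D+ cells these values were 0.011 and 0.026. Their part in the rho between Ciita and the classical genes was not tested.

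**Figure D4:**
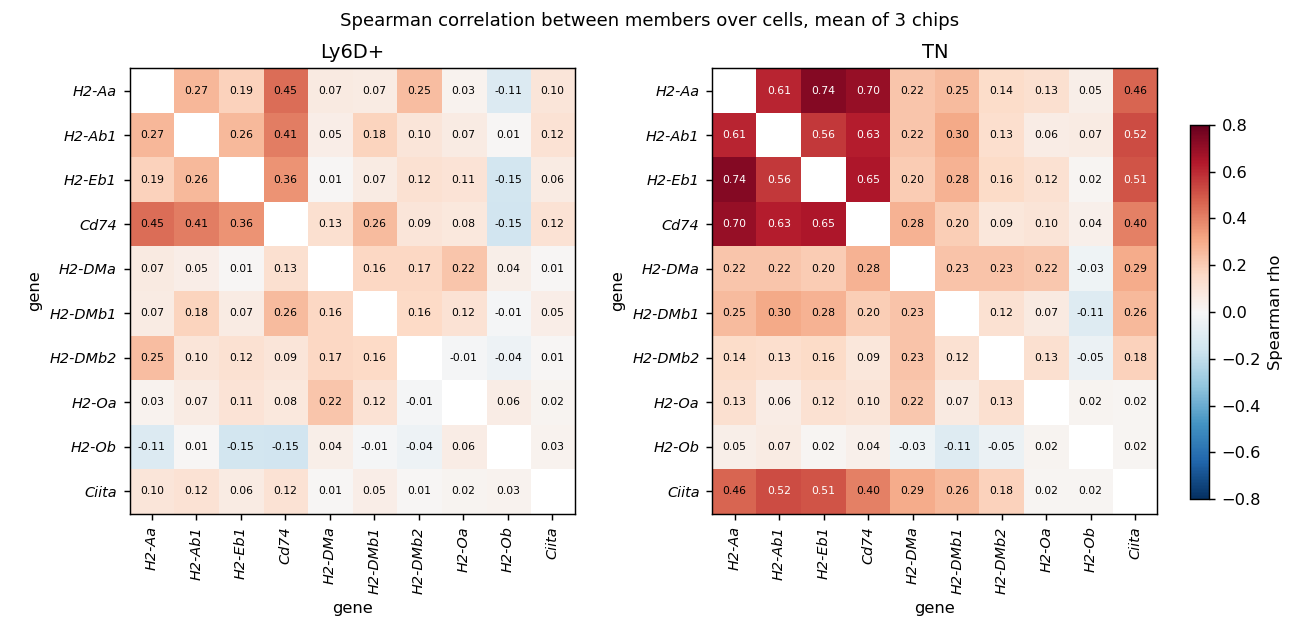
Spearman rho for each pair of genes over the cells of a chip, averaged over 3 chips, with Ly6D+ at the left and TN at the right (red positive, blue negative). The 4 classical genes form a block of 0.56 to 0.74 in TN with Ciita attached, and the same block is paler in Ly6D+.

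H2-Ob stood apart from the rest of the set in both populations. Its mean rho with the classical genes was -0.10 ± 0.086 in Ly6D+ cells and 0.042 ± 0.13 in TN cells. Among Ly6D+ cells, H2-Ob was detected in 43.8% of those with any classical gene or Cd74 and 48.1% of those without, and among TN cells in 23.3% of those with and 20.6% of those without. H2-Ob was thus about as frequent in cells with classical genes as in cells without them. It did not go with its partner chain either. H2-Oa accompanied H2-Ob in 8 of its 70 cells in Ly6D+ and in 7 of its 47 in TN, and the mean rho of the pair was 0.057 in Ly6D+ and 0.024 in TN. Of the cells with 200 or more thinned reads of the classical chains, 20 or more H2-Ob reads were also met in 2 of 8 (25%) from Ly6D+ and 8 of 38 (21.1%) from TN. Among all cells that H2-Ob level was met in 34.9% of Ly6D+ and 15.5% of TN, so the share in cells with high classical levels lay below that of all cells in Ly6D+ and above it in TN, on few cells. Of the 8 TN cells with both, 7 were on chip 1.

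**Figure D5:**
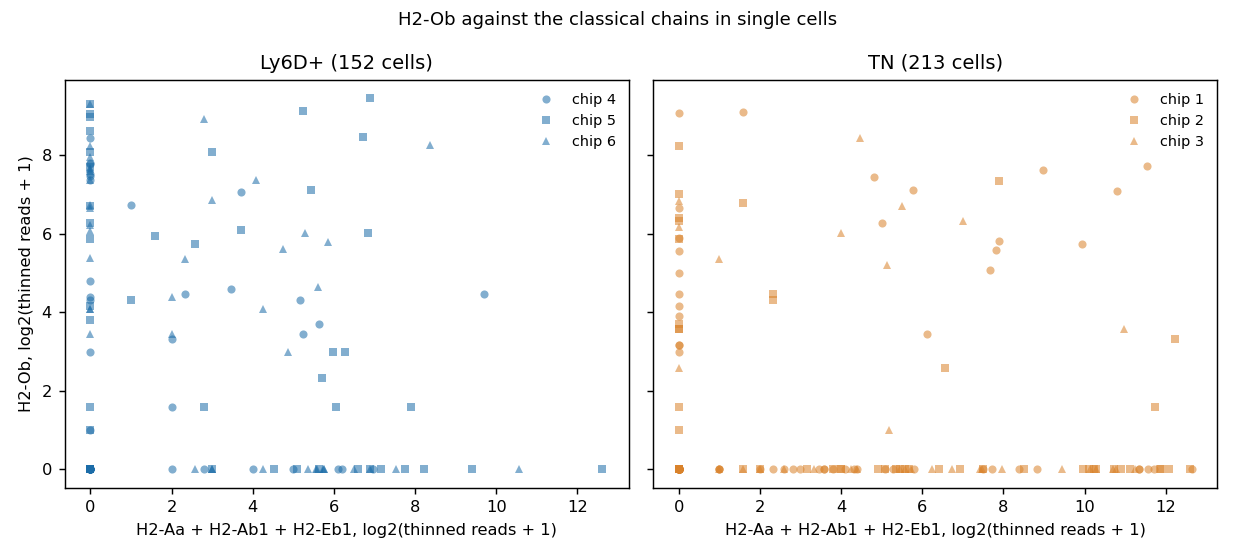
Each point is a cell, with the thinned reads of H2-Aa, H2-Ab1 and H2-Eb1 together on the x axis and those of H2-Ob on the y axis, both as log2(reads + 1), Ly6D+ at the left and TN at the right, and symbols for chips. Cells with H2-Ob reads alone lie on the left edge (39 in Ly6D+ and 24 in TN), cells with classical chain reads alone on the bottom (32 in Ly6D+ and 75 in TN), and cells with reads of both between them (39 in Ly6D+ and 27 in TN).

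Over all 6789 genes detected in at least 10% of TN cells, those most like the summed classical genes and Cd74 in TN were found by the mean rho within 3 chips. Mir5107, whose reads overlap Cd74, came first at 0.76, followed by Batf3, a dendritic cell transcription factor, at 0.50, Plbd1 at 0.46 and Id2, an inhibitor of E proteins, at 0.45. Ckb (0.41), Samd9l (0.40), Lgals3 (0.37) and Tmsb10 (0.37) completed the first 8, where the 99th percentile of all genes was 0.17 and the median -0.10. Among these 8 the spread over chips was widest for Id2, at 0.59, 0.61 and 0.15 on TN chips 1, 2 and 3. Plbd1 averaged 0.00697 CPM on the Ly6D+ chips and 120.7 ± 119.5 CPM on the TN chips and was called lower in Ly6D+ (adjusted p = 0.012 in edgeR). Batf3 averaged 2.31 ± 4.0 CPM on the Ly6D+ chips and 56.8 ± 48.3 CPM on the TN chips, and did not pass (adjusted p = 0.623 in edgeR). The summed classical genes correlated with the number of genes detected in a cell at 0.026 in Ly6D+ and -0.40 in TN, and the part of this in the likeness values was not tested.

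Over 6965 genes in Ly6D+ cells, those most like H2-Ob were Tspan13 (0.42), Rag1 (0.37), Vpreb2 (0.37), Rag2 (0.37), Vpreb1 (0.35), Pde2a (0.35), Sh2d5 (0.34) and Srgn (0.34), where the 99th percentile was 0.24 and the median -0.020. Rag1 and Rag2 make the recombinase of antigen receptor genes, and Vpreb1 and Vpreb2 are surrogate light chains of the pre-B cell receptor. Rag2 averaged 210 ± 55.4 CPM on the Ly6D+ chips and 34.95 ± 7.82 CPM on the TN chips and was called higher in Ly6D+ (log2 fold change 2.59 ± 0.34, adjusted p = 0.0396 in edgeR). Irf8, a factor of dendritic and B lineage cells that was named here after its value was seen, had the lowest rho of all 6965 genes with H2-Ob, at -0.43, and it was negative on all 3 chips.

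Among the other genes of the pathway, those for the parts that assemble on the promoter each had overlapping chips. Of 8 enhanceosome genes (Rfx5, Rfxap, Rfxank, Nfya, Nfyb, Nfyc, Creb1, Atf1), 0 were called in edgeR and all 8 overlapped over chips, with 8 log2 fold changes above 0 and a median of 0.36. Their summed level was 541 to 620 CPM on the Ly6D+ chips and 408 to 522 CPM on the TN chips, without overlap. Rfx5, the DNA-binding subunit of RFX, had 16.4, 57.5 and 10.98 CPM on the Ly6D+ chips and 9.87, 12.7 and 45.1 CPM on the TN chips. Of 7 tested factors listed as acting on Ciita, 0 were called, with Irf4 at 37.4, 19.2 and 63.95 CPM on the Ly6D+ chips and 2.12, 12.4 and 3.78 CPM on the TN chips, and Spi1 at 10.7, 3.90 and 8.996 CPM on the Ly6D+ chips and 24.2, 32.1 and 17.2 CPM on the TN chips. Irf4 was higher and Spi1 lower on every Ly6D+ chip, with adjusted p of 0.375 and 0.614 in edgeR. Irf8 of the same list was also lower on every Ly6D+ chip, at 752, 982 and 614 CPM on the Ly6D+ chips and 1134, 1094 and 1419 CPM on the TN chips (log2 fold change -0.64 ± 0.22, adjusted p = 0.415 in edgeR). Over all genes, 7.64% lay higher and 7.75% lower on every Ly6D+ chip.

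Of the genes that process antigen or remove class II, 8 of 11 had a log2 fold change below 0. Of the 11 genes 1 was called in edgeR, Cst3, which encodes the cathepsin inhibitor cystatin C, and 7 did not overlap over chips, all lower in Ly6D+, with a median log2 fold change of -0.63. Over all genes 0.203% were called and 7.75% did not overlap as lower in Ly6D+. Cst3 fell to 434, 411 and 388 CPM on the Ly6D+ chips, against 1824, 2204 and 1917 CPM on the TN chips (log2 fold change -2.27 ± 0.16, adjusted p = 0.00478 in edgeR). Ctsh, a cathepsin, had 19.8, 119.2 and 8.79 CPM on the Ly6D+ chips and 271, 239 and 341 CPM on the TN chips (adjusted p = 0.407 in edgeR). Marchf1, the ubiquitin ligase that takes class II off the surface, had 0, 1.76 and 0 CPM on the Ly6D+ chips and 43.3, 38.3 and 40.2 CPM on the TN chips (adjusted p = 0.375 in edgeR). Of 9 class I and loading genes 0 were called, with a median log2 fold change of 0.22, and Nlrc5, the class I counterpart of Ciita, averaged 250 CPM in Ly6D+ and 98.4 CPM in TN (adjusted p = 0.527 in edgeR).

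Summed marker levels of conventional dendritic cells, monocytes, B cells and progenitors did not overlap between the populations, and those of plasmacytoid dendritic cells did, while Cst3 was the marker that passed the test. Of 9 tested markers of mature conventional dendritic cells 1 was called lower in Ly6D+ (Cst3), and the summed level of the 9 was 640 to 821 CPM on the Ly6D+ chips and 2462 to 3560 CPM on the TN chips, most of it Cst3 and Id2. In the same list 2 of 9 genes had a log2 fold change above 0, Xcr1 (4.33, overlapping chips) and Ccr7, named after its values were seen, which had 71.7, 61.9 and 43.7 CPM on the Ly6D+ chips and 1.89, 28.2 and 20.4 CPM on the TN chips (adjusted p = 0.626 in edgeR). The defining markers Zbtb46 and Itgax had reads in 0 and 12 Ly6D+ cells and in 2 and 42 TN cells. Of 7 tested monocyte and macrophage markers 0 were called, and the 7 summed to 22.8 to 354 CPM on the Ly6D+ chips and 568 to 736 CPM on the TN chips. C1qa had no read. Over TN cells, the mean rho with the summed classical genes was 0.14 for Ccr2, 0.11 for Cd68, -0.054 for Lyz2, -0.070 for Ly6c2 and -0.26 for Csf1r, the 5 of these markers detected in at least 10% of TN cells. For mature B cells 0 of 4 tested markers were called, and the 4 summed to 725 to 1407 CPM on the Ly6D+ chips and 87.8 to 224 CPM on the TN chips. Ms4a1, Fcer2a and Cr2 had reads in 0 Ly6D+ cells and 1 TN cell each, so mature B cell markers were at or near 0 where H2-Ob was high. Plasmacytoid dendritic cell markers (0 of 8 called) summed to 1040 to 2114 CPM on the Ly6D+ chips and 853 to 1640 CPM on the TN chips. Progenitor markers (0 of 5 called) summed to 3454 to 3585 CPM on the Ly6D+ chips and 2235 to 3191 CPM on the TN chips. Cd93 was the largest part, with means of 1947 CPM in Ly6D+ and 1225 CPM in TN. In the same list Cd34 and Kit had log2 fold changes below 0 (-1.13 and -0.57). Cd34 was lower on every Ly6D+ chip, at 232, 110 and 231 CPM, against 394, 426 and 430 CPM on the TN chips. None of 5 neutrophil markers and 2 of 6 T and NK cell markers passed the low-count filter, and 0 were called. Interferon response genes (0 of 10 called, median log2 fold change 1.76) had overlapping chips, with sums of 410 to 4133 CPM on the Ly6D+ chips and 313 to 1465 CPM on the TN chips. The part of these marker and interferon gene levels in the class II values was not tested.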

How the data were processed

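Single cells were captured on C1 chips, and full-length cDNA was made by template switching, per the labels' protocols. For each gene, the authors deposited whole-number read counts of every cell without normalisation, and a gene length in bases of unstated origin, used here for CPM per kb. The submitters' processing notes name build mm9 and R 3.2.0. Aligner, counter and strand setting: not given in the sources used here. The series' design text gives 178 Ly6D+ and 232 TN cells captured, of which those with 60% of reads mapped, enough counts and 800 genes detected were kept. No further cell was left out, and no doublet caller was run. Libraries have no molecular identifiers, so limits on shares cover counting error only.

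Gene symbols came from RefSeq by Entrez identifier for 23334 of 23427 genes. Counts were summed per chip and tested with edgeR 4.0.16 (R 4.3.3, TMM, filterByExpr, quasi-likelihood F-test, adjusted p under 0.05). DESeq2 1.42.0 and limma 3.58.1 were alternatives. CPM uses TMM-scaled library sizes, and the SE is the absolute log2 fold change over the square root of F. Shares of cells were compared over 6 chips by exact permutation. Promoter motifs and shared 50-base stretches came from RefSeq and GENCODE transcripts of GRCm38, which is not the build of the counts. The edgeR fit and the ranking of genes by likeness were tested on simulated data, and the other steps were not.

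The genes, the pathway and marker lists and the rules for naming genes were chosen with earlier results of these data known. Named genes were all 10 genes, the 8 most like the summed classical genes in TN and the 8 most like H2-Ob in Ly6D+ (detected in 10% or more of cells), list members past the threshold and otherwise at most 3 per list. Some listed genes were named outside this rule, with levels, fold changes or rho values, namely Rfx5, Irf8, Ccr7, Kit and monocyte and macrophage markers. Other listed genes are named only as members of a list or with their counts of reads.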

Additional observations from a re-analysis of the deposited data

How the results depend on the processing

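The share of genes called depended on the tool and on single chips. DESeq2 called 2.33% of genes higher and 2.57% lower in Ly6D+, and limma-trend 1.87% higher and 0.89% lower, against 0.0932% and 0.11% in edgeR. Leaving out 1 chip at a time gave 0.00813% to 0.0575% higher and 0.00813% to 0.131% lower in edgeR, with a pair of chips left in 1 group. Of the 10 class II genes, DESeq2 called 1 higher and 6 lower, limma-trend 1 higher and 2 lower, and edgeR without cells under 1500 genes 1 lower. Leaving out a chip gave 0 to 1 lower and 0 to 0 higher. RLE scaling and no filter on low counts left all 10 uncalled.

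The direction of 8 of the 10 log2 fold changes held under the 11 alternatives. The exceptions were H2-DMb2, which ranged from -1.80 to 0.15 when 1 chip was left out and was 0.15 without TN chip 2, and H2-Oa, which had no direction without cells under 1500 genes (-0.000343 ± 0.68). Averaging log2(CPM + 1) gave differences of 0.069 for H2-DM and 2.16 for H2-O against the classical chains. Detection shares were also read at 1 or more thinned reads. The Ly6D+ minus TN difference was then 0.063 points for H2-Ab1, against -5.49, and -8.06 points for Cd74, against -13.5. The other genes kept their direction at this cutoff. Pearson correlation on log2 values gave 0.44 among the classical genes in Ly6D+ cells, against 0.32. Leaving out the highest cell, an alternative chosen after seeing the data, gave log2 ratios of -3.64 for H2-Aa, -2.41 for H2-Ab1, -2.62 for Cd74 and -4.18 for Ciita. Where no cause is given, the cause was not tested. No paired analysis was possible because the chips carry numbers 1 to 6 that the populations do not share. With 3 chips each, exact tests cannot go below 0.1, and the chip level of a gene in few cells rests on few of them. For Ciita 1 or 2 cells held 50% or more of the reads of each chip, and for H2-DMb2 it took 1 to 3 cells.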
